A study of Mus musculus with 8 samples.

Results

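The 35 genes described here code for proteins of the myelin sheath, for enzymes of its lipids and for factors that keep oligodendrocytes mature. They were taken by name, as the probes that carry each gene's symbol in the array files, and the probe with the highest mean signal over the 8 arrays stood for the gene. All 35 had a probe, out of 25917 genes tested in the series, and 67 probes in all carried these symbols, with 21 genes having several. The chosen probe was well above background on all 8 arrays for 35 of the 35 genes and was saturated for 0 of them. For 33 of the 35 it carried a RefSeq mRNA accession of the same gene, the exceptions being Myrf and Adamts4, whose chosen probes carried Ensembl transcript names.

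The study profiled RNA on single-colour microarrays from C57Bl/6J mice with a conditional knockout labelled Cx47, which the series title places in oligodendroglia, and from WT mice. Experimental autoimmune encephalomyelitis (EAE) is an immune-mediated disease of the spinal cord and brain used as a model of multiple sclerosis. Each of 8 groups had 1 array: Cx47-deficient and WT mice with EAE, with EAE and iguratimod (an anti-inflammatory drug), with EAE in its chronic phase, and naive. The promoter that drives the deletion, the ages and the number of animals behind an array are not given in the sources used here, and the titles mark Cx47-deficient arrays as icKO and WT arrays as FL or F/F. The tissue label is spinal cord and the source label astrocyte.

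Mature oligodendrocytes wrap axons in compacted membrane that is rich in cholesterol and galactolipids, and a small set of proteins holds the layers together. Sox10 and Myrf are transcription factors that switch on these genes, and several of the encoded proteins also attach the sheath to the axon. In EAE the sheath is attacked, and its genes are a common readout of oligodendrocyte state.

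Beside the source label, myelin markers were measured throughout. Of 10 markers of myelinating oligodendrocytes, 10 were well above background on every array. So were 10 of 10 astrocyte markers, 10 of 10 neuron markers and 10 of 10 choroid plexus markers. Levels here are log2 of the processed signal minus the array's 75th percentile, and a summed level adds a list's signals as multiples of that percentile. The astrocyte markers summed to 92 and 48 on the Cx47-deficient and WT chronic arrays, against 138 and 145 on the Cx47-deficient and WT naive arrays, and the other 4 arrays lay between 125 and 164. The choroid plexus markers summed to between 4.8 (WT chronic) and 40 (WT EAE iguratimod). Fewer oligodendrocytes in the animals, fewer in the preparations and less RNA per oligodendrocyte cannot be told apart here.

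The 2 chronic arrays lay alone on a second slide, so chronic disease and slide cannot be told apart. Their spike-in slope was 0.762 and 0.764 with an R squared of 0.846 and 0.848, against slopes of 0.92 to 1.07 and R squared of 0.964 to 0.988 on the other 6 arrays. On the chronic arrays 71.3% and 72.0% of spots were well above background, against 59.7% to 65.8%. The comparisons of chronic EAE below all carry this limit. Statements below that values of arrays do not overlap come without the share of all genes for which this holds. With 1 array per group, the error of a fit is the variation of the genotype difference from condition to condition. Each array is a different genotype and condition, so no 2 arrays can share an animal. This spread therefore mixes differences between animals, genotype differences that vary by condition and technical variation, which cannot be told apart.

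Across the 8 arrays the 35 genes moved largely as a block. Their median level was 2.75, 2.15, 2.46 and 2.2 on the Cx47-deficient naive, EAE, EAE iguratimod and chronic arrays, and 2.82, 2.47, 2.40 and 1.65 on the WT arrays of the same conditions. The WT chronic array held the lowest value of 30 genes and the WT naive array the highest value of 23. As a description over 8 arrays, the Pearson correlation of a gene with the median of the others was above 0.8 for 27 genes. Those points share arrays and scaling, and the chronic arrays set much of the range. The low end was held by Ermn (-0.80), Myrf (-0.63), Nfasc (-0.18), Cntn2 (0.12) and Omg (0.13). On the 6 arrays of the first slide alone the same correlation was above 0.8 for 17 genes. It was -0.45 for Car2, -0.10 for Ermn and 0.01 for Myrf there, so the opposite course of Ermn and Myrf rests on the chronic arrays.

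**Figure D1:**
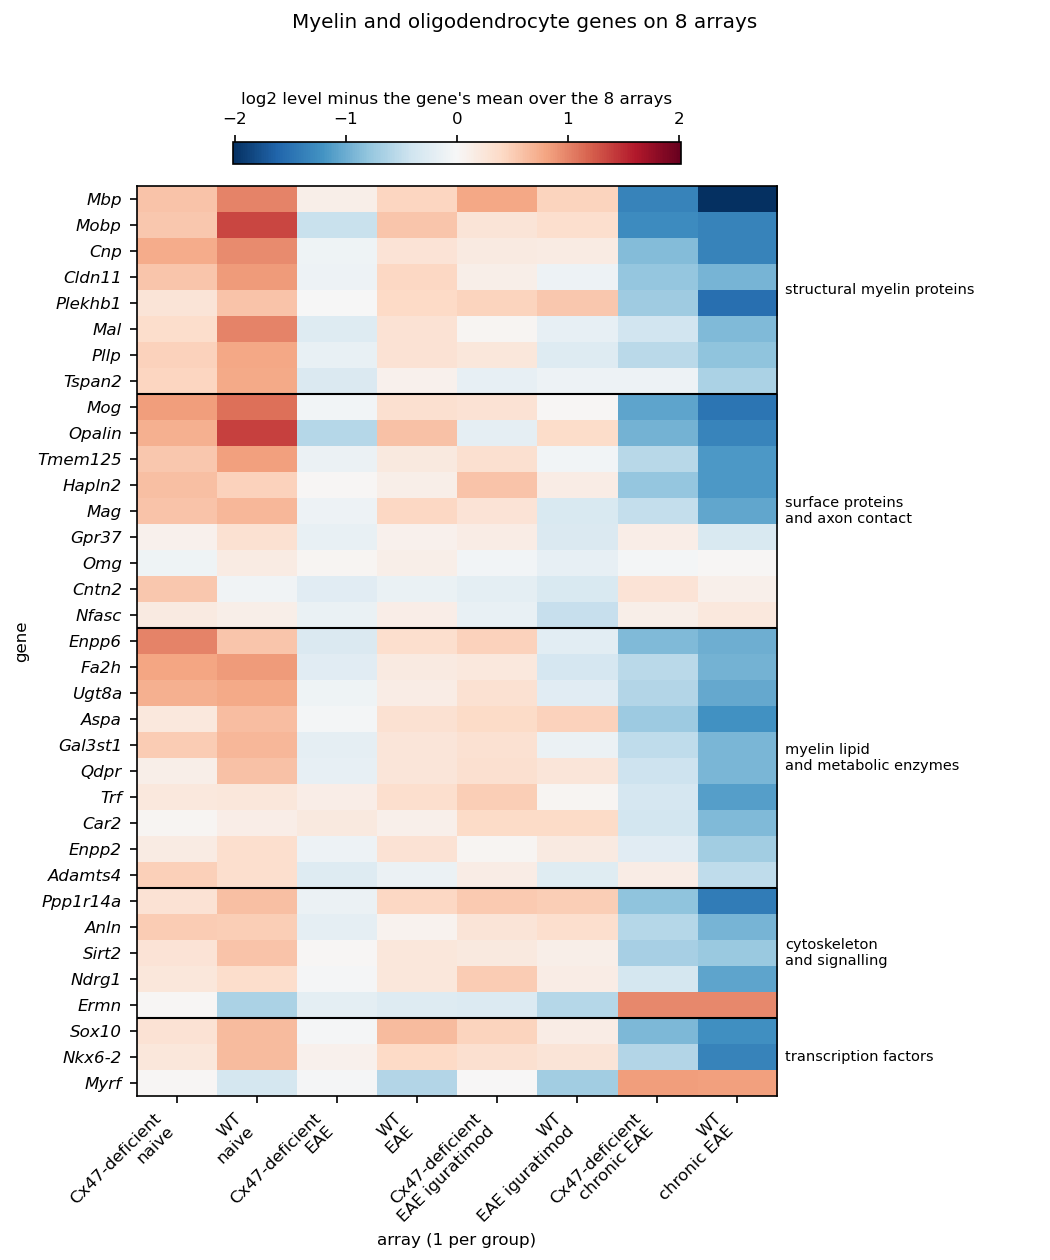
Heat map of the 35 genes (rows, grouped by role) on the 8 arrays (columns, 1 per group). Colour is the log2 level minus the gene's own mean over the arrays. Most rows are red on the naive arrays and blue on the chronic arrays, the WT chronic array holds the lowest value of 30 genes, and Ermn and Myrf run the other way.

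Since these genes moved together, their promoters were searched for 2 short motifs. The search covered the windows from 250 bases before to 50 after the RefSeq transcript start (GRCm38.p6), which were at hand for 25 of the genes in 32 windows. CTGGCAC or CTGGTAC on either strand, letters of a known Myrf binding motif, were in 7 of 32 windows (21.9%), belonging to Cnp, Hapln2, Mag, Mog, Opalin and Tmem125, against 7.1% of 32851 windows of all genes. Overlapping windows of Mag hold the same match, so it is counted more than once in the 7, which belong to 6 genes. AACAAAG or AACAATG, letters that Sox proteins bind, were in 3 of 32 windows (9.38%), against 9.36% of all windows. The windows of 4 genes that hold the first motif are shown, because Mog, Opalin and Cnp were among the genes with the lowest chronic values and Mag had probes that disagreed. The strand is that of the gene, and capitals mark the motif on either strand.
Mog (chr17:37023349-37023648, minus strand): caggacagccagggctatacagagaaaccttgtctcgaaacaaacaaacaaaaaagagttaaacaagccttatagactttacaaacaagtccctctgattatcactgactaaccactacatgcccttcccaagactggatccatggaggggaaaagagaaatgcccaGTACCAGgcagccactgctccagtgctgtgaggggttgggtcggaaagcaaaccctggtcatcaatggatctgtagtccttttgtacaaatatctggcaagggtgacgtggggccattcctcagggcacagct
Opalin (chr19:41077064-41077363, minus strand): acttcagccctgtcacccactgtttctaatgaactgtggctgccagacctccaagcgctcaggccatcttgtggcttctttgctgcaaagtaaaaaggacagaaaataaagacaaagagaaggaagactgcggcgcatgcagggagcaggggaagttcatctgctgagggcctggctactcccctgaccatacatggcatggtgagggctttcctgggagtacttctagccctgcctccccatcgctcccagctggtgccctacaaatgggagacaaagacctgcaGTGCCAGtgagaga
Cnp (chr11:100574689-100574988, plus strand): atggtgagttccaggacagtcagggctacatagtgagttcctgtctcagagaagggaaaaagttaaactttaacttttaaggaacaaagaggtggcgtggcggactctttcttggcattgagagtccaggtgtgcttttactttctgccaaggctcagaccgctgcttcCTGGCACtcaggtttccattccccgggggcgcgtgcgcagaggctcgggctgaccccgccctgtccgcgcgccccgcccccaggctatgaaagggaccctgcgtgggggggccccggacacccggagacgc
Mag (chr7:30914814-30915113, minus strand): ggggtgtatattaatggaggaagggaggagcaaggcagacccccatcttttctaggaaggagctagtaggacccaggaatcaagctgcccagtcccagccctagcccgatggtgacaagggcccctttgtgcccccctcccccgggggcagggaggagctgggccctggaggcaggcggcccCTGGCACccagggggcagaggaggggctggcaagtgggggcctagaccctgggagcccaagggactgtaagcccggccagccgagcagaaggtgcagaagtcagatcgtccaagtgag
In Mog the motif read GTACCAG, in Opalin GTGCCAG, and in Cnp and Mag CTGGCAC. A match of these letters is a description of the window and not a binding site.

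The untreated EAE arrays whose source label gives no phase are called active EAE here, and were set against naive. Of the 35 genes 31 were below 0 in the fitted difference, with a median of -0.46 against -0.06 over all genes, and 0 were called at an adjusted p under 0.05 (limma, Benjamini-Hochberg over all genes; 0.251% of all genes were called, 0.00386% in the lower direction). The lowest adjusted p was 0.471. Unadjusted, 8 genes had a p under 0.05 on the lower side (22.9%, against 1.76% of all genes), and they were Opalin, Mobp, Fa2h, Mog, Cnp, Ugt8a, Tspan2 and Anln. None of these 8 differences passed the test after adjustment.

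Opalin, a sialylated membrane protein of oligodendrocytes, had the lowest fitted value. It was at -1.64 and -0.46 on the Cx47-deficient and WT EAE arrays, against -0.34 and 0.32 on the Cx47-deficient and WT naive arrays, a fitted difference of -1.04 ± 0.38 (SE). Both EAE values lay below both naive values. Mobp, a basic protein of compact myelin, was at 3.13 and 4.14 on the Cx47-deficient and WT EAE arrays, against 4.12 and 4.92 on the Cx47-deficient and WT naive arrays, and the WT EAE array lay just above the Cx47-deficient naive one. Fa2h, the hydroxylase of galactolipid fatty acids, was at 1.73 and 2.14 on the Cx47-deficient and WT EAE arrays, against 2.75 and 2.82 on the Cx47-deficient and WT naive arrays, and both EAE values lay below both naive ones.

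By role, the fitted medians in EAE against naive were -0.61 for 8 structural proteins, -0.46 for 9 surface and axon-contact proteins, -0.43 for 10 lipid and metabolic enzymes, -0.30 for 5 cytoskeletal and signalling proteins and -0.16 for 3 transcription factors. All 8 structural genes were below 0 and the members closest to 0 or above it were Trf (0.02), Omg (0.03), Car2 (0.06) and Ermn (0.08). Single arrays of both genotypes were compared as well. The median was -0.58 between the Cx47-deficient arrays, with 33 of 35 genes lower, and -0.34 between the WT arrays, with 31 lower. In Cx47-deficient mice 3 genes were lower by 2-fold or more (2.11% of all genes) and 0 higher (5.08%), and in WT mice 0 were lower (1.92%) and 0 higher (3.35%). The fitted median of -0.46 moved in either direction with the EAE array left out. It was -0.23 without the Cx47-deficient EAE array and -0.67 without the WT EAE array. With any other array left out it lay between those values. Monocyte and macrophage markers moved with EAE too, summing to 89 and 40 on the Cx47-deficient and WT EAE arrays, against 3 and 4 on the Cx47-deficient and WT naive arrays. Of these 8 markers all 8 were well above background on both EAE arrays, and the part of infiltrating cells in the myelin values was not tested.

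**Figure D2:**
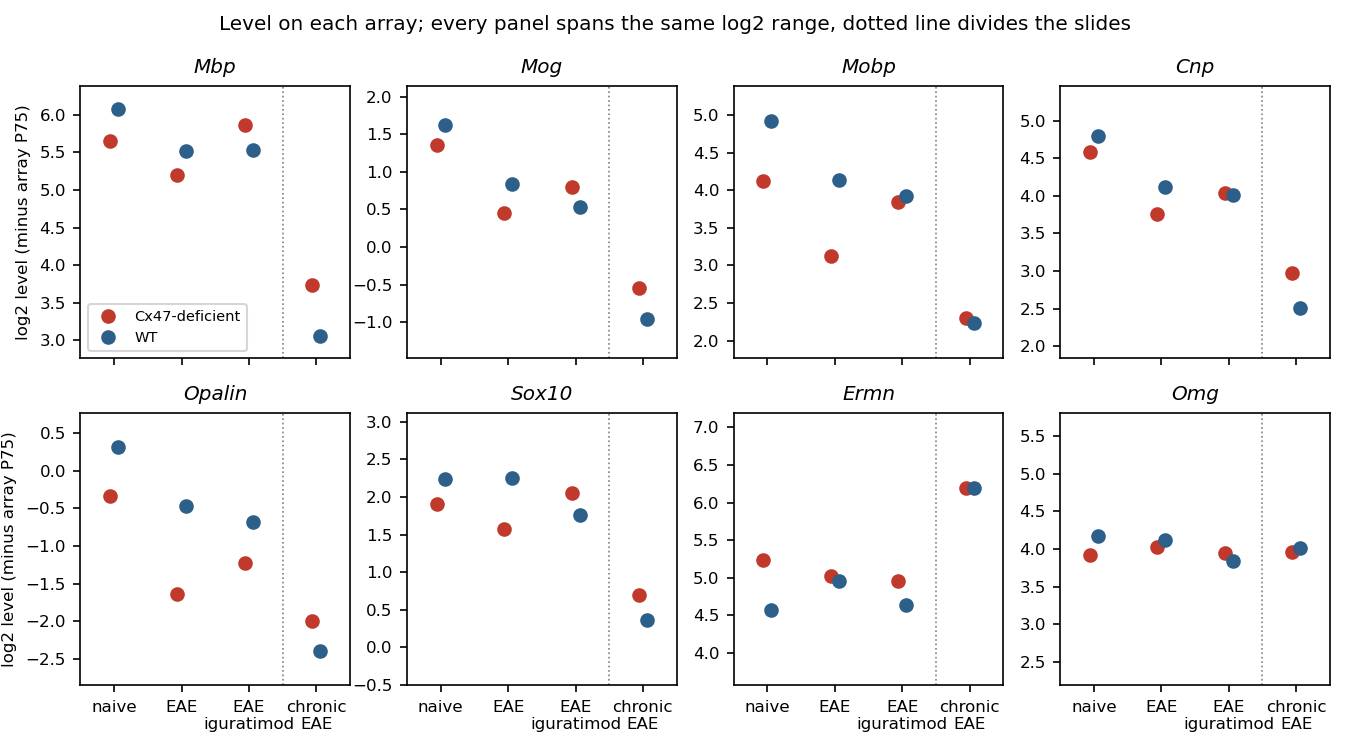
Log2 level (minus the array's 75th percentile) of 8 genes on each array, by condition, with Cx47-deficient arrays in red and WT arrays in blue. The dotted line divides the slides. Mbp, Mog, Mobp, Cnp, Opalin and Sox10 have their lowest values on the chronic arrays, Ermn its highest (6.19 on both), and Omg stays between 3.83 and 4.17.

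The largest differences were those of chronic EAE against naive. The fitted median of the 35 genes was -1.32, against 0.03 over all genes, and 32 of the 35 were below 0. Mog was called and 0 others were (0.86% of all genes were called, 0.212% in the lower direction and 0.648% in the higher), while 28 genes had an unadjusted p under 0.05 on the lower side (80.0%, against 13.7% of all genes) and 2 on the higher side (5.71%, against 19.0%). Mog fell by 2.24 on the log2 scale, 4.73-fold, with an SE of 0.26 and an adjusted p of 0.0461 (limma). This call was lost without any 1 of the 8 arrays, after quantile normalization, with the authors' processed values, with no filter on dim probes and with the mean of a gene's probes (which called Mbp, Mobp and Sirt2 in its place). Normexp background correction called 29 members, 27 lower and 2 higher, but also 3898 genes over all. A filter at all 8 arrays called 23 members, 21 lower and 2 higher, and 1714 genes over all.

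Differences between the slides also depended on signal level. Over all genes in bins of 1 log2 unit, the median of chronic minus naive was 1.47 at a mean level of -7 to -6 and -0.46 at a mean level of 6 to 7. Most of the 35 genes lie at levels where this median is below 0. After subtracting the bin median from each gene, an alternative chosen after seeing the data, the median of the 35 was -1.12.

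**Figure D3:**
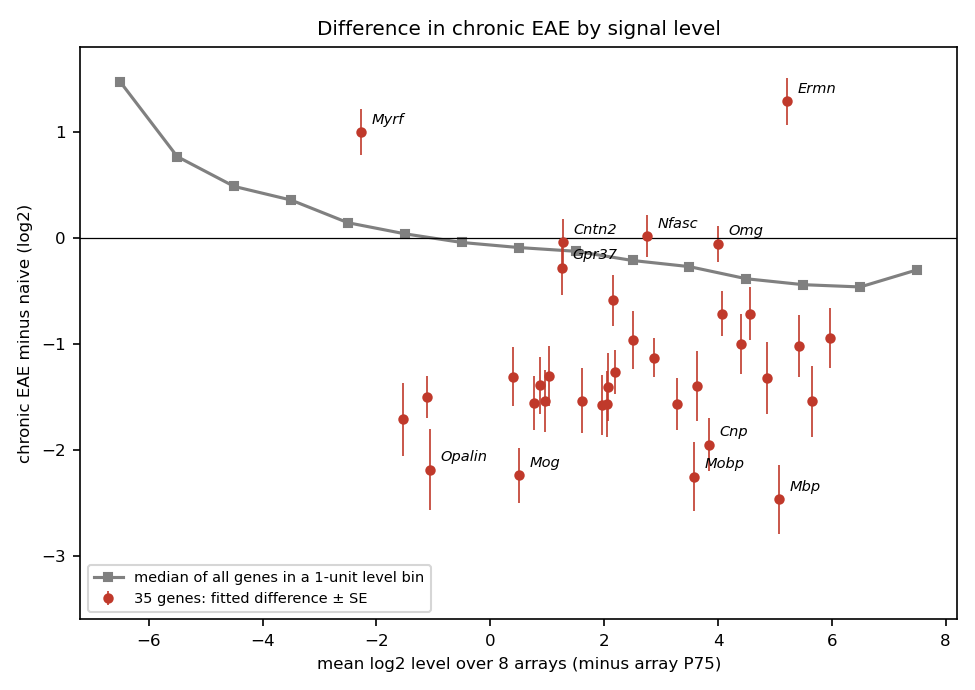
Fitted difference of chronic EAE minus naive (log2, with SE) for the 35 genes against their mean log2 level, and in grey the median of all genes per level bin of at least 20 genes. The genes lie mostly between -2.5 and -0.5, below the grey line, with Omg, Nfasc and Cntn2 near 0 and Ermn and Myrf above.

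Structural proteins were low throughout in chronic EAE, with 8 of 8 below 0 and a median of -1.56. Mbp, which zips the cytoplasmic faces of the membrane together, was at 5.66, 5.19, 5.87 and 3.73 on the Cx47-deficient naive, EAE, EAE iguratimod and chronic arrays, and at 6.08, 5.52, 5.53 and 3.06 on the WT arrays of the same conditions. Its 2 chronic values lay below all 6 others, and the fitted difference from naive was -2.47 ± 0.32 (SE) with an adjusted p of 0.0514 (limma), just outside the threshold. Cnp, an enzyme that keeps cytoplasmic channels in myelin open, was at 2.97 and 2.5 on the Cx47-deficient and WT chronic arrays, against 4.59 and 4.80 on the Cx47-deficient and WT naive arrays. Its difference was -1.95 ± 0.25 (SE), and both chronic values lay below all other arrays. Mobp, at 2.31 and 2.23 on the Cx47-deficient and WT chronic arrays, differed from naive by -2.26. Cldn11, the claudin that seals myelin lamellae, differed by -1.57, Plekhb1 by -1.54, Mal, a raft protein of myelin, by -1.32, Pllp, a tetraspan proteolipid, by -1.30 and Tspan2, a tetraspanin, by -0.97.

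Surface and axon-contact proteins split in chronic EAE. Mog, an outer-surface protein and a common autoantigen of EAE models, was at 1.36, 0.46, 0.80 and -0.55 on the Cx47-deficient naive, EAE, EAE iguratimod and chronic arrays, and at 1.62, 0.84, 0.53 and -0.96 on the WT arrays of the same conditions. Opalin was at -2.0 and -2.39 on the Cx47-deficient and WT chronic arrays, a fitted -2.19 from naive. Tmem125 differed from naive by -1.54, Hapln2, a link protein of the node of Ranvier, by -1.50, and Mag, an adhesion molecule facing the axon, by -1.40. Omg, Nfasc and Cntn2, which neurons make as well, were close to 0, at -0.06, 0.02 and -0.04, each within 1 SE. Gpr37, a receptor that restrains oligodendrocyte differentiation, was at -0.28 ± 0.26 (SE). The 10 neuron markers had a median of -0.19 in the same comparison. The part of neurons in the Omg, Nfasc and Cntn2 values was not tested.

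The Mog and Opalin probes are shown because their mapped positions (mm9, per the file headers) span more bases than the probe has, as a probe across joined exons does.
Mog (chr17:37149021-37149332, minus strand): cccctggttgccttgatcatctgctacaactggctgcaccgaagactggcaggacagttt
Opalin (chr19:41138452-41141030, minus strand): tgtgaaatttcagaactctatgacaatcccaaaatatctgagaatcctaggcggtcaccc
The Mog probe covers 312 bases of the genome and the Opalin probe 2579, with 60 bases each.

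All 10 lipid and metabolic enzymes were below 0 in chronic EAE, with a median of -1.17, and 9 had an unadjusted p under 0.05. Ugt8a, which makes galactosylceramide, was at 0.17 and -0.27 on the Cx47-deficient and WT chronic arrays, against 1.48 and 1.54 on the Cx47-deficient and WT naive arrays. Gal3st1, which sulfates that lipid, was at -0.11 and -0.53 on the Cx47-deficient and WT chronic arrays, against 0.91 and 1.07 on the Cx47-deficient and WT naive arrays. For both genes the chronic values lay below all 6 others, with no share of all genes to set beside this. Fitted differences from naive were -1.56 for Ugt8a, -1.31 for Gal3st1 and -1.58 for Fa2h, which acts in the same lipid pathway. Enpp6, a choline phosphodiesterase of new oligodendrocytes, differed by -1.71 and Aspa, which cleaves N-acetylaspartate, by -1.39. Qdpr, which recycles tetrahydrobiopterin, differed by -1.02, Trf, the iron carrier transferrin, by -0.95, Car2, a carbonic anhydrase, by -0.72 and Enpp2, the lysophospholipase autotaxin, by -0.72. The protease gene Adamts4 had 2.31 and 1.65 on the Cx47-deficient and WT chronic arrays, against 2.64 and 2.5 on the Cx47-deficient and WT naive arrays, so the groups did not overlap but lay close.

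Among 5 cytoskeletal and signalling genes 4 were below 0. Ppp1r14a, an inhibitor of myosin phosphatase, differed from naive by -1.57, Anln, a septin scaffold, by -1.27, Sirt2, a tubulin deacetylase of myelin, by -1.13 and Ndrg1 by -1.0. Ermn, an actin-binding protein of late oligodendrocytes, went the other way. It was at 6.19 and 6.19 on the Cx47-deficient and WT chronic arrays, against 5.24 and 4.57 on the Cx47-deficient and WT naive arrays, with the 4 EAE and iguratimod arrays between 4.64 and 5.02. The fitted difference was 1.29 ± 0.22 (SE), while the median of all genes at its level was -0.44. Only 1 probe carried the name Ermn.

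The transcription factors gave 2 low genes and 1 high one. Sox10, needed through the whole oligodendrocyte lineage, was at 1.9, 1.57, 2.06 and 0.69 on the Cx47-deficient naive, EAE, EAE iguratimod and chronic arrays, and at 2.24, 2.25, 1.75 and 0.37 on the WT arrays of the same conditions. Both chronic values lay below the other 6. Nkx6-2, a homeobox factor of myelination, was at 1.46 and 0.71 on the Cx47-deficient and WT chronic arrays, against 2.29 and 2.71 on the Cx47-deficient and WT naive arrays. Fitted differences from naive were -1.54 for Sox10 and -1.41 for Nkx6-2. Myrf was at -1.43 and -1.45 on the Cx47-deficient and WT chronic arrays, against -2.25 and -2.63 on the Cx47-deficient and WT naive arrays, a fitted 1.0 ± 0.22 (SE).

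The chronic arrays were also set against those of active EAE. Here 6 genes were called lower (5.38% of all genes) and 2 higher (9.04% of all genes), out of 14.4% of all genes called in either direction. The fitted median was -0.83, against 0.02 over all genes. Mbp fell by 1.96 on the log2 scale (adjusted p 0.0386), Mog by 1.40 (0.0414), Sox10 by 1.38 (0.0474), Cnp by 1.20 (0.0439), Hapln2 by 1.04 (0.0423) and Sirt2 by 0.83 (0.0473), all from limma. Ermn rose by 1.20 (limma adjusted p 0.0413) and Myrf by 1.14 (limma adjusted p 0.0423). The Myrf probe carried an Ensembl transcript name. In a fit per probe, kept Ensembl probes had a median of 0.74 in this comparison, with 1207 of 4860 called higher. The other Myrf probe was too dim for the fit, and its readings ran the opposite way. With any 1 array left out between 0 and 2 of the 35 genes were called, so these calls rest on all 8 arrays. The comparisons of chronic EAE with naive and with active EAE share the chronic arrays and are not separate evidence. The fitted median was -0.52 without the WT EAE array and -0.56 without the WT chronic array.

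The genotypes were also taken alone. Between the Cx47-deficient arrays, chronic minus naive, the median was -0.98, with 31 of 35 genes lower, 17 of them by 2-fold or more (2.29% of all genes), and 0 higher by 2-fold (8.55%). Between the WT arrays it was -1.61, with 31 lower, 28 of them by 2-fold or more (9.64% of all genes) and 2 higher by 2-fold or more (16.6% of all genes). Mbp had the lowest value in both, at -1.92 in Cx47-deficient mice and -3.02 in WT mice. Ermn had the highest in both, at 0.95 in Cx47-deficient mice and 1.62 in WT mice. Other markers moved with the chronic arrays as well. The 10 astrocyte markers had a fitted median of -0.89 against naive, the erythroid markers -0.90, the ependymal markers -0.63 and the 8 microglia markers -0.37. Above 0 were T cell markers at 1.88, monocyte and macrophage markers at 0.63 and endothelial markers at 0.55. Only 3 of 7 T cell markers were well above background on each naive array, so their value rests largely on dim probes. Their summed level was 1.2 and 2.1 on the Cx47-deficient and WT naive arrays, against 1.2 and 1.4 on the Cx47-deficient and WT chronic arrays. The part of all these markers in the myelin values was not tested.

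Cx47 deficiency was asked about first over all conditions. The fitted genotype difference of the 35 genes had a median of 0.01, with 21 above 0 and 14 below (27 and 8 after quantile normalization, 6 and 29 after median centring), and 0 were called (0.0% of all genes; 1147 genes, 4.43%, had an unadjusted p under 0.05). Myrf was the single member with an unadjusted p under 0.05, at 0.42 ± 0.16 (SE) and an adjusted p of 0.83 (limma). Mobp was at 4.12, 3.13, 3.84 and 2.31 on the Cx47-deficient naive, EAE, EAE iguratimod and chronic arrays, and at 4.92, 4.14, 3.92 and 2.23 on the WT arrays of the same conditions. Its genotype difference was thus -0.80 in the naive pair, -1.01 in the EAE pair, -0.08 in the iguratimod pair and 0.08 in the chronic pair.

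Within conditions the sign differed. In naive mice the Cx47-deficient array was lower for 27 of 35 genes, with a median of -0.21, although after quantile normalization the split was 19 lower and 16 higher and the median -0.03. In EAE it was lower for 32 genes, with a median of -0.34, and after quantile normalization for 30, with a median of -0.20. With iguratimod the Cx47-deficient array was higher for 27 genes, with a median of 0.27, and in chronic EAE for 32 genes, with a median of 0.44. The medians over all genes in these pairs were -0.05, -0.03, -0.03 and 0.02. Each value compares 2 arrays and was not tested.

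**Figure D4:**
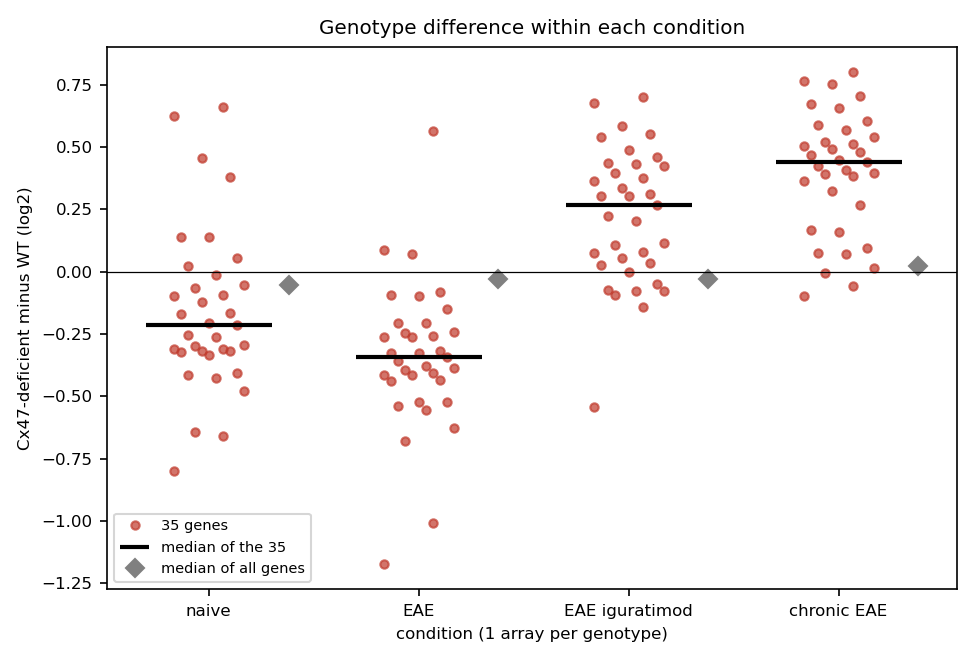
Cx47-deficient minus WT (log2) for each of the 35 genes within each condition, 1 array per genotype, with the median of the 35 as a black bar and the median of all genes well above background in the pair as a grey diamond. The bars lie at -0.21, -0.34, 0.27 and 0.44 from naive to chronic EAE.

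Few genes reached 2-fold in these pairs. In EAE 2 of the 35 were lower by 2-fold or more in the Cx47-deficient array (0.676% of all genes), Opalin at -1.17 and Mobp at -1.01, and 0 were higher (6.72%). In naive mice 0 of the 35 were lower (2.64% of all genes), with Mobp lowest at -0.80, and 0 were higher (8.07%), with Ermn highest at 0.66. With iguratimod 0 were higher (2.6% of all genes) and 0 lower (2.26%). In chronic EAE 0 were lower (1.29% of all genes) and 0 higher by 2-fold (1.63%), and Plekhb1 at 0.80 and Trf at 0.77 came closest. Nkx6-2 at 0.75, Ndrg1 at 0.71 and Mbp at 0.67 followed.

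Other measures differed between the paired arrays too. The share of spots well above background was 65.8%, 65.5%, 62.6% and 71.3% on the Cx47-deficient naive, EAE, EAE iguratimod and chronic arrays, and 59.7%, 59.9%, 61.1% and 72.0% on the WT arrays of the same conditions. The astrocyte markers had a median genotype difference of -0.16, -0.10, -0.28 and 0.81 from naive to chronic, the choroid plexus markers one of 0.44, -1.05, -1.35 and 1.47, and the neuron markers one of -0.36, -0.33, -0.06 and 0.15. Markers of the other cell types had medians from -1.19 (endothelial) to 1.03 (erythroid) in the naive pair and up to 0.80 (T cell) in the EAE pair. In the iguratimod pair they ran from -1.48 (erythroid) to 1.52 (T cell), with monocyte and macrophage markers at 1.06 and microglia markers at 0.91. In the chronic pair erythroid markers were at 1.48, endothelial at 1.08 and ependymal at 0.92. The part of these measures in the myelin differences was not tested.

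Iguratimod in EAE was compared with EAE alone. The fitted median over both genotypes was 0.03, with 22 genes above 0 and 13 below, and 0 were called (0.0% of all genes; 546 genes, 2.11%, had an unadjusted p under 0.05 and 0 of the 35 did). Within each genotype single arrays were compared, and the sign differed. Between the Cx47-deficient arrays 32 of 35 genes were higher with iguratimod (49.971% of all genes), with a median of 0.37. Between the WT arrays 28 were lower (49.749% of all genes), with a median of -0.22. The 35 genes moved largely as a block, so their number does not stand in for replicate arrays, and the difference between genotypes was not tested. In Cx47-deficient mice Enpp6 was highest at 0.76, at -1.06 with iguratimod against -1.82 without, and Mbp was higher by 0.67, at 5.87 against 5.19. In WT mice Mag was lowest at -0.74, at 3.33 with iguratimod against 4.06 without. By 2-fold or more 0 of the 35 were higher (0.268% of all genes) and 0 lower (3.53%) in Cx47-deficient mice, and 0 higher (3.08%) and 0 lower (1.22%) in WT mice. This comparison shares the EAE arrays with that of EAE and naive mice, so a low or high EAE array enters both.

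Several probes of 1 gene did not always move together, and a fit at the level of single probes, added after seeing the data, was used to describe this over 39737 kept probes. Of 49 member probes with a RefSeq mRNA accession 47 were below 0 in chronic EAE against naive, with a median of -1.32. Of 7 with an Ensembl transcript name 3 were below 0 and the median was 0.92. Over all kept probes the medians were -0.13 for 23720 RefSeq mRNA probes and 0.59 for 4860 Ensembl probes. The Ensembl probes were also dimmer, with a median level of -3.06 against -0.77. All 7 Ensembl member probes were above 0 in the genotype fit as well, with a median of 0.40, against 0.18 over all kept Ensembl probes.

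Mag shows the contrast, and the mean of its probes gave 0.21 against naive, as that of Enpp2 gave 0.38. Which transcripts the Mag probes bind was not tested. Its RefSeq probe was at 3.15 and 2.59 on the Cx47-deficient and WT chronic arrays, against 4.22 and 4.31 on the Cx47-deficient and WT naive arrays. Its Ensembl probe (ENSMUST00000186422) was at -0.50 and -0.21 on the Cx47-deficient and WT chronic arrays, against -1.77 and -2.58 on the Cx47-deficient and WT naive arrays, a difference of 1.82. Aspa had -1.39 by its RefSeq probe and 0.92 by an Ensembl one. Enpp2 had -0.72 by its RefSeq probe and 1.57 and 0.29 by probes with the cDNA accessions AK038940 and AK046689. Nfasc had 0.02 by the chosen probe, -0.57 to -0.18 by 3 other RefSeq probes and 1.95 by an Ensembl probe that was well above background on 2 arrays.

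Mbp probes for different transcripts disagreed, and those of Mobp and Mog did not turn sign. The 2 Mbp probes for NM_010777 had -2.47 and -3.24 in chronic EAE against naive, while the probe for NM_001025245, another transcript of the gene, had -0.28. That last probe was at 2.0 and 2.0 on the Cx47-deficient and WT chronic arrays, against 2.19 and 2.38 on the Cx47-deficient and WT naive arrays. Both Mobp probes were low, at -2.26 and -2.60, and so were all 3 Mog probes, at -2.24, -1.69 and -2.03.

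The Myrf value given above came from the Ensembl probe, which the rule chose as the brighter one. The probe for the RefSeq mRNA NM_001033481 was well above background on 1 of 8 arrays and so was not in the fit. Its readings ran opposite to those of the Ensembl probe. They were -5.07 and -5.34 on the Cx47-deficient and WT naive arrays, against -8.06 and -8.11 on the Cx47-deficient and WT chronic arrays. With nearly all of them not well above background, they were not tested and cannot settle the direction of Myrf. The RefSeq-named probe is shown whole because its mapped position covers 193 bases.
Myrf NM_001033481 (mm9 chr19:10284933-10285125, minus strand): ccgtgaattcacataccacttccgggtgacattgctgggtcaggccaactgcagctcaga
The last 30 bases of 4 Ensembl-named member probes, 3 of them above 0 in chronic EAE, are shown. They hold AATAAA, the letters of the polyadenylation signal, given in capitals, and whether these act as a signal was not tested.
Mag ENSMUST00000186422: tctggactatatAATAAAATAAAagagcag
Myrf ENSMUST00000189439: gcccgaaccactgataaAATAAAacttgca
Aspa ENSMUST00000132774: catttgggatgtaAATAAAgtaattcatta
Cnp ENSMUST00000147403: cttgttaaAATAAActacctatatatctcc
AATAAA was in 4 of the 7 kept Ensembl member probes and 6 of the 49 RefSeq ones, against 7.7% of all kept Ensembl probes and 11.5% of all kept RefSeq probes. Over all kept Ensembl probes the chronic difference was 0.56 with these letters and 0.59 without. The Cnp probe held them and had -0.72.

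**Figure D5:**
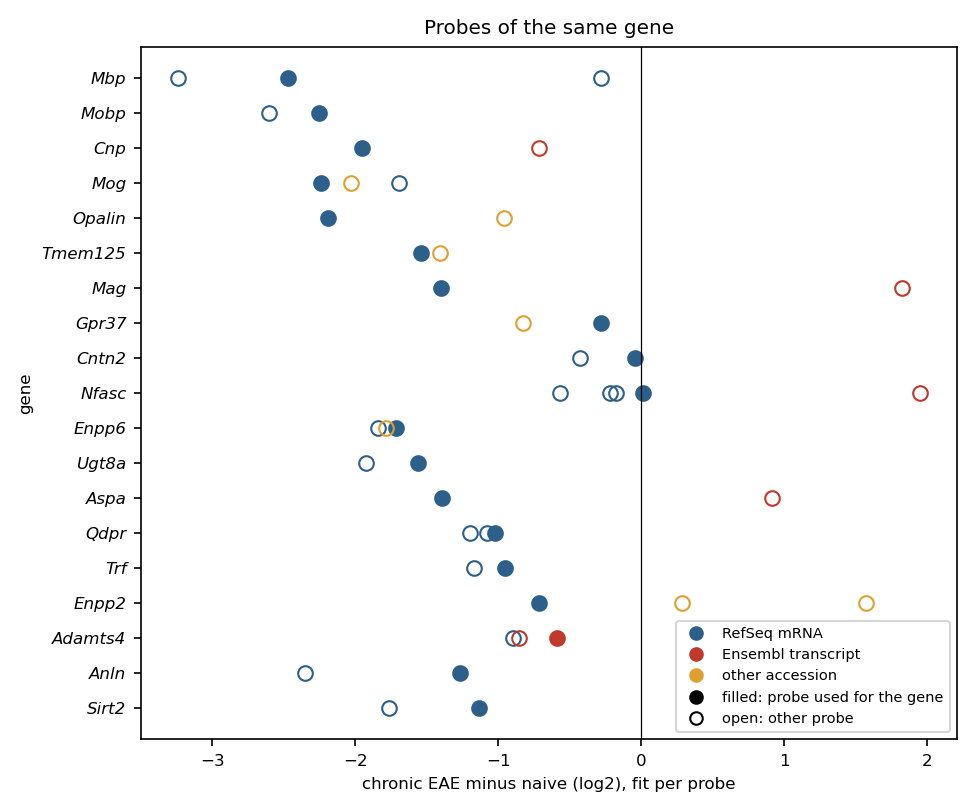
Chronic EAE minus naive (log2, fit per probe) for genes with several kept probes. Filled circles are the probe used for the gene and open circles its other probes, coloured by the kind of accession. RefSeq mRNA probes lie left of 0 for nearly all genes, while the Ensembl probes of Mag (1.82), Aspa (0.92) and Nfasc (1.95) and a cDNA probe of Enpp2 (1.57) lie right of it.

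Other genes of the same cells and pathways were counted from lists of known genes. The lists were chosen with earlier results of these data known. Of 28 other oligodendrocyte genes 25 were below 0 in chronic EAE against naive, with a median of -1.15 and 0 called, and against active EAE 7 were called lower (5.38% of all genes) and 1 higher (9.04%), in a comparison where the genes called fell to as few as 1 with 1 array left out. Among the genes of this list farthest from 0 against active EAE were Apod, a lipid-binding lipocalin, which fell by 1.92 on the log2 scale, Klk6, a protease of oligodendrocytes, which also fell by 1.92, the potassium channel gene Kcnj10, which fell by 1.35, and Gsn, an actin-severing protein, which fell by 1.24. The single gene called higher was Dusp15, a phosphatase named after its values were seen, which rose by 0.92, although the mean of its probes gave -0.32. Against naive Klk6 was at -1.98, Serpinb1a at -1.76 and Gsn at -1.76, none of them called.

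Less mature stages and the lipid supply were closer to 0. The 12 differentiating oligodendrocyte genes had a median of -0.26 in chronic EAE against naive, with 10 below 0, and the 12 precursor genes one of -0.11, each with 0 called. Farthest from 0 were Bcas1, a gene of newly formed oligodendrocytes, at -1.14, and among precursor genes C1ql1 at -1.56 and Pcdh15 at 1.38. For cholesterol synthesis, 19 genes had a median of -0.55 and 0 were called against naive, while Mvd, a mevalonate pathway enzyme, fell by 0.96 against active EAE and was the single gene of the list called there. The 10 sphingolipid handling genes had a median of -0.32 with 0 called. Of 10 genes of Schwann cells and peripheral myelin 7 were tested, with a median of 0.20 and 0 called. The median over all genes in this comparison was 0.03, and no difference between these lists was tested.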

How the data were processed

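The deposited scanner files hold the intensity of each spot on an array, made with Agilent Feature Extraction 10.7.1.1 per the file headers, while the submitters' processing notes name version 9.5.1.1. The processed intensity had background subtracted by the scanner software, per the file headers. The flags for outlier, saturated and well-above-background spots and the other columns were taken as deposited. A table of the authors' processed intensities, quantile normalized as worked out from its values (median 50.2 in every column), served only as an alternative.

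Control spots and outlier spots (38 to 73 outliers per array) were left out, spots of a probe were averaged, and log2 signals were centred on each array's percentile 75. A gene took the kept probe with the highest mean, and a probe was kept when well above background on at least 2 of 8 arrays. Differences were fitted in limma 3.58.1 (R 4.3.3) as condition plus genotype over 8 arrays, which left 3 residual degrees of freedom, and the prior SD was 0.234. The call threshold was 0.05 on p-values adjusted by Benjamini-Hochberg across 25917 genes. The fit was tested on simulated data. Differences between single arrays, counted at 2-fold, have no test. They cover genes that either array of the pair measured above background. Names cover all members and, from each other list, up to 4 genes with the largest absolute difference. The check of the targeted gene is not reported here.

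The members and lists were chosen with earlier results of these data known. The fit per probe, the RefSeq-only probes and the correction by level bin were added after seeing the data. Other alternatives were normexp background correction (offset 50), quantile normalization, median centring, other filters, the mean of a gene's probes, the first slide alone and each array left out. Promoter sequences are from RefSeq, GRCm38.p6. Precision is limited by having 8 arrays.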

Additional observations from a re-analysis of the deposited data

Results flagged for a closer look

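The median genotype difference of the 35 genes, Cx47-deficient minus WT, was 0.44 in chronic EAE and -0.34 in active EAE, 0.78 apart, and drew attention because the signs are opposite. The median iguratimod difference, EAE with iguratimod minus EAE, was 0.37 in Cx47-deficient mice and -0.22 in WT mice, 0.58 apart and again opposite in sign. Each value compares single arrays, both patterns use the same 2 EAE arrays, and neither difference was tested. No group has the 4 arrays that a search for outlying samples needs.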

How the results depend on the processing

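The labels give no replicate numbers, so no fit with a replicate block was made. The fit itself sets the genotypes against each other within condition. A slide block could not be fitted for the chronic comparisons, since the chronic arrays lie alone on their slide. The causes of the changes below were not tested.

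For EAE minus naive 65 genes were called. This became 200 with normexp, 38 with quantile normalization, 340 with median centring, 38 with the authors' values, 15 with no filter, 201 with the filter at all 8 arrays, 0 on slide 1 alone and 0 to 11 with 1 array left out, where the members' median was -0.67 to -0.23. For chronic EAE minus naive 223 genes and 1 member were called. The genes became 3898 with normexp, 19 with quantile normalization, 1043 with median centring, 12 with the authors' values, 25 with no filter, 1714 with the filter at all 8 arrays and 1 to 3 with 1 array left out. The members became 29 with normexp, 0 with quantile normalization, 16 with median centring, 0 with the authors' values, 0 with no filter, 23 with the filter at all 8 arrays, 3 with the mean of a gene's probes (Mbp, Mobp and Sirt2, not Mog) and 0 with any 1 array left out. Their median was -1.68 with median centring and -1.62 to -1.02 with 1 array left out. For chronic EAE minus EAE 3738 genes and 8 members were called. The genes became 7570 with normexp, 6451 with median centring, 849 with no filter and 1 to 2446 with 1 array left out. The members became 22 with normexp, 19 with median centring, 0 with no filter, 17 with the filter at all 8 arrays and 0 to 2 with 1 array left out. Their median was -1.23 with median centring and -1.10 to -0.52 with 1 array left out. With 1 array left out the genotype median was -0.09 to 0.14 and the iguratimod median -0.22 (without the Cx47-deficient EAE array) to 0.31 (without the WT EAE array).

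The called genes split as 168 higher and 55 lower for chronic EAE minus naive, against 11 and 8 with quantile normalization, 5 and 7 with the authors' values, 1970 and 1928 with normexp and 601 and 442 with median centring. For chronic EAE minus EAE the split was 2344 and 1394, against 2094 and 2178 with quantile normalization, 2035 and 2128 with the authors' values and 2756 and 3695 with median centring. Median centring put the median of all genes at -0.33 in chronic EAE minus naive, -0.38 in chronic EAE minus EAE and -0.18 in the genotype fit, against 0.03, 0.02 and -0.0016 before, and the members shifted by as much. The mean of a gene's probes turned the sign of Mag, to 0.21 against naive and 0.62 against EAE, of Enpp2, to 0.38 against naive and 0.76 against EAE (limma adjusted p 0.0487), of Adamts4, to -0.20 against EAE from a value near 0, and of Dusp15, to -0.32 against EAE, all for chronic EAE. It turned 5 members in the genotype fit, 4 in the iguratimod fit and 0 in EAE minus naive. With RefSeq mRNA probes only, chosen after seeing the data, the medians were -0.47, -1.36 and -0.84 for EAE minus naive, chronic EAE minus naive and chronic EAE minus EAE.

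Between single arrays, median centring gave members' medians of -0.54 for Cx47-deficient minus WT in naive mice, -0.68 for that in EAE (where quantile normalization and the authors' values gave -0.20 each) and -2.16 for chronic minus naive in WT mice. The counts below have no share of all genes beside them, so they show only how the member counts moved with the setting. At 1.5-fold in place of 2-fold, Cx47-deficient minus WT had 2 members higher and 3 lower in naive mice, 4 lower in EAE, 2 higher with iguratimod and 8 higher in chronic EAE. In naive mice 1 was lower with median centring. In EAE 1 was lower with normexp, 1 with quantile normalization, 1 with the authors' values and 0 at 3-fold. For EAE minus naive 17 were lower at 1.5-fold and 0 at 3-fold in Cx47-deficient mice, and 9 at 1.5-fold in WT mice. For iguratimod, 1 member was higher with the mean of a gene's probes and 4 at 1.5-fold in Cx47-deficient mice, and 2 were lower at 1.5-fold in WT mice. For chronic minus naive in Cx47-deficient mice 1 was higher with quantile normalization, 1 with the authors' values and 2 at 1.5-fold, and 6 were lower at 3-fold. In WT mice 1 was higher with normexp, 1 with quantile normalization, 1 with median centring, 1 with the authors' values and 1 at 3-fold.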
